A study of Mus musculus with 8 samples.

Results

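The mRNA levels of 10 amino acid transporters were followed in cultured mouse microglia exposed to lipopolysaccharide (LPS), the bacterial cell wall component that activates these cells through Toll-like receptor signalling. The genes were Slc3a2, Slc7a5, Slc7a7, Slc7a8, Slc43a2, Slc1a5, Slc38a1, Slc38a2, Slc36a1 and Slc1a3. They were found by Ensembl identifier through the GENCODE vM21 symbols, and all 10 were present among the 52636 identifiers of the count table. Microglia came from the brains of newborn C57BL/6 wild-type mice (C57BL/6N pups in the methods), were shaken off mixed glial cultures and were kept with CSF-1 at 10 ng/ml, a growth factor that microglia need. They then received 5 µg/ml LPS or vehicle for 24 h, with 4 libraries in each group and no other difference in genotype or culture between the groups. The labels name biological replicates without saying whether these were separate cultures or animals, so p-values measure the spread between these libraries, which may in part be technical. Shaking off a mixed culture leaves some other glia behind, and in RNA of a whole culture fewer cells of a type and less RNA per cell cannot be told apart.

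Amino acids cross membranes only through carriers, and these differ in what they carry and in what drives them. Slc3a2 encodes CD98, also called 4F2hc, a heavy chain that carries no substrate itself but brings a light chain of the SLC7 family to the cell surface. The light chains Slc7a5 (LAT1) and Slc7a8 (LAT2) exchange large neutral amino acids, and Slc7a7 (y+LAT1) exchanges cationic for neutral ones. Slc43a2 (LAT4) lets neutral amino acids through by facilitated diffusion, Slc1a5 (ASCT2) exchanges small neutral amino acids and glutamine, and Slc38a1 and Slc38a2 (SNAT1 and SNAT2) take up small neutral amino acids and glutamine with sodium. Slc36a1 (PAT1) is a proton-coupled carrier of the lysosome and plasma membrane, and Slc1a3 (GLAST) is a glutamate transporter best known from astrocytes.

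Libraries held 20071921 to 30604447 counts. Values are given as CPM, counts scaled to a common library size after TMM normalization, which rescales each library so that most genes do not differ. Means are given ± SD over n = 4 libraries, and log2 fold changes of LPS against vehicle ± SE. They were tested with edgeR's quasi-likelihood test, with p-values adjusted over the 13847 genes that passed the filter on low counts, among them all 10 transporters. The treatment was visible in every library, since Nos2, the inducible nitric oxide synthase, rose by a log2 fold change of 13.45 and Il1b by 6.38. Of 10 microglial markers, 7 were called lower and 1 higher after LPS, beside 33.8% and 30.3% of all tested genes. Their summed level was 8226 to 8631 CPM in vehicle and 2580 to 3041 CPM in LPS libraries.

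After LPS, 5 of the 10 transporters were called higher (Slc3a2, Slc7a5, Slc7a7, Slc7a8 and Slc38a2, the last of which turned lower with library totals), 2 were called lower (Slc1a5 and Slc43a2) and 3 did not pass the test. At the same threshold 64.1% of all tested genes were called, 30.3% higher and 33.8% lower, so that being called is common in this comparison. The median log2 fold change of the 10 was 0.04, beside -0.11 over all tested genes. All 4 LPS libraries lay above all 4 vehicle libraries in 4 of the 10 genes, and below them in 2, where the shares of all tested genes were 28.7% and 31.5%.

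**Figure D1:**
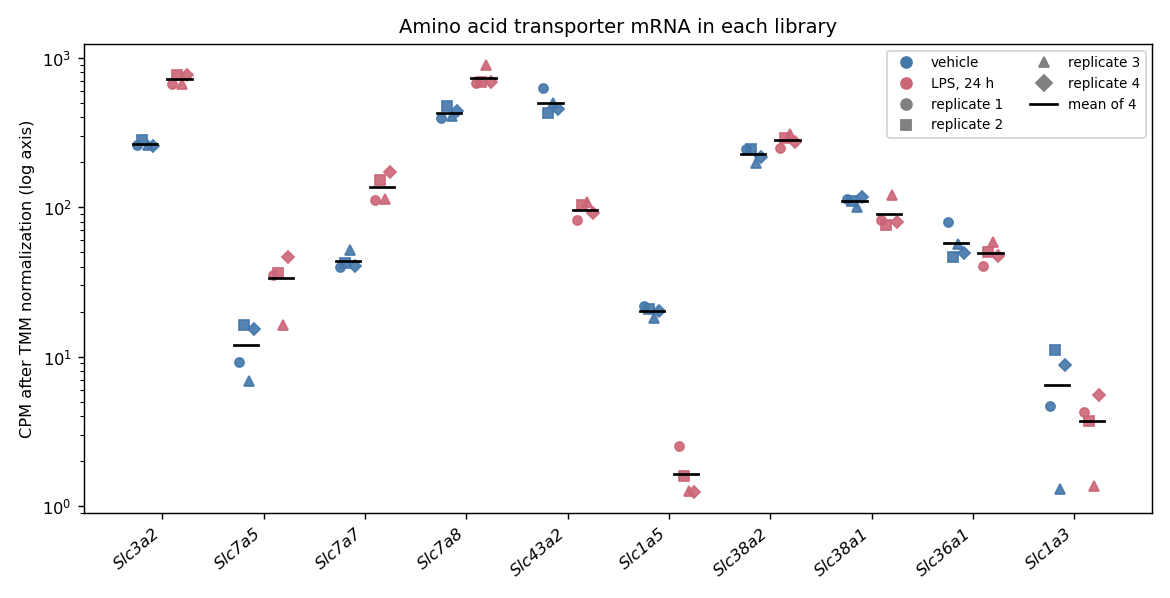
CPM after TMM normalization of the 10 transporters, on a log axis, in each of the 4 vehicle (blue) and 4 LPS (red) libraries, with the replicate number as the marker shape and the mean as a black line. Slc1a5 and Slc43a2 have all LPS points far below the vehicle points, Slc3a2 and Slc7a7 have them well above, and replicate 3 (triangles) is the lowest point of Slc7a5 and Slc1a3 in both groups.

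The heavy chain Slc3a2 (chromosome 19, 8706882 to 8723369, minus strand, GRCm38) rose. It measured 263, 280.2, 259 and 258 CPM in vehicle replicates 1 to 4 and 665, 772, 672 and 766 CPM in LPS replicates 1 to 4. Both groups were tight and far apart, with means of 265 ± 10.2 and 719 ± 58.3 CPM. This is 2.71-fold higher after LPS (log2 fold change 1.44 ± 0.11, edgeR adjusted p = 4.08e-06).

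Each of the 3 light chains among the 10 genes rose with it. Slc7a7 (chromosome 14, 54369442 to 54417780, minus strand) had 39.9, 42.2, 51.6 and 40.6 CPM in vehicle and 112, 153, 114 and 171 CPM in LPS libraries. The groups stood apart, and the 3.16-fold difference (log2 fold change 1.66 ± 0.16, edgeR adjusted p = 1.93e-05) was the largest rise of the 10 genes in this fit. Exons of Oxa1l on the opposite strand cover 7.0% of its exonic bases, and whether counting used the strand is not given in the sources used here.

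Slc7a8 (chromosome 14, 54722209 to 54781946, minus strand) was the most abundant light chain, with 395, 474, 409.7 and 442 CPM in vehicle and 679, 684, 892 and 690.0 CPM in LPS libraries. The groups did not overlap, and LPS replicate 3 lay well above the other LPS libraries. The rise was smaller than those of Slc3a2, Slc7a7 and Slc7a5, at 1.71-fold (log2 fold change 0.78 ± 0.13, edgeR adjusted p = 6.49e-04). The log2 fold change was 0.09 (adjusted p = 0.487) when libraries were scaled by their total counts instead of TMM.

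Slc7a5 (chromosome 8, 121881150 to 121907694, minus strand), the light chain usually linked to growth and leucine uptake, was scarce and variable. It had 9.28, 16.3, 6.88 and 15.4 CPM in vehicle replicates 1 to 4 and 35.1, 36.5, 16.2 and 46.7 CPM in LPS replicates 1 to 4. LPS replicate 3 fell just under the highest vehicle library, so the groups overlapped, while every LPS library exceeded the vehicle library with its own number. The rise of 2.81-fold had a wide interval (log2 fold change 1.49 ± 0.35, 95% interval 0.70 to 2.28, edgeR adjusted p = 4.46e-03), and with library totals it was 0.83 (adjusted p = 0.0793).

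The heavy chain can be set against its light chains only per length, so CPM were divided by the exonic length in kilobases (CPM per kb). Slc3a2 went from 75.1 ± 2.90 to 203.6 ± 16.5 CPM per kb, and the sum of its light chains Slc7a5, Slc7a6, Slc7a7, Slc7a8 and Slc7a11, with traces of Slc7a13, from 111.0 ± 6.91 to 250.5 ± 22.7 CPM per kb. The ratio of heavy chain to summed light chains was 0.704, 0.662, 0.697 and 0.648 in vehicle and 0.775, 0.938, 0.670 and 0.898 in LPS libraries. LPS replicate 3 was the only LPS library inside the vehicle range. The log2 ratio was 0.26 higher after LPS, which a two-sided exact permutation test over the 70 divisions of the 8 libraries did not call (p = 0.0857, 0.129 adjusted over 3 ratios). Within same-numbered pairs it was higher in 3 of 4 (exact sign flip p = 0.25). Without LPS replicate 3 the difference was 0.36 (exact permutation p = 0.0286, the smallest that 4 against 3 libraries allow), and on counts not divided by length it was -0.12 (exact permutation p = 0.457).

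Slc7a8 held 77.4 ± 1.86% of the light chain CPM per kb in vehicle and 58.6 ± 3.00% in LPS libraries. Slc7a7 went from 11.9 ± 1.94% to 16.8 ± 4.48%, with ranges of 10.6% to 14.8% and 12.1% to 21.3% that overlapped. The share of Slc7a11 (xCT), the cystine and glutamate exchanger, went from 1.37 ± 1.81% to 19.0 ± 5.04%, and vehicle replicate 1 held 4.09% against 0.390% to 0.545% in the other vehicle libraries. Slc7a5 stayed a small part at 2.87 ± 0.958% and 3.72 ± 1.56%, and Slc7a6 (y+LAT2) went from 6.47 ± 0.949% to 1.94 ± 0.438%. These shares were not tested, since they sum to a whole and move against each other.

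The ratio of LAT1 to LAT2, Slc7a5 to Slc7a8 per length, was 0.0354 in vehicle and 0.0579 in LPS libraries as geometric means. The log2 ratio differed by 0.71, which the exact permutation test did not call (p = 0.171, also after adjustment over the 3 ratios). LPS replicate 3 was the lowest LPS library with 0.0245, beside 0.0697, 0.0720 and 0.0914 in the others, and vehicle replicate 3 was the lowest of the vehicle libraries, 0.0227 to 0.0470. Within same-numbered pairs the ratio was higher after LPS in 4 of 4 (exact sign flip p = 0.125, the smallest that 4 pairs allow). Without LPS replicate 3 the difference was 1.12 (exact permutation p = 0.0286, the smallest possible for 4 against 3).

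**Figure D2:**
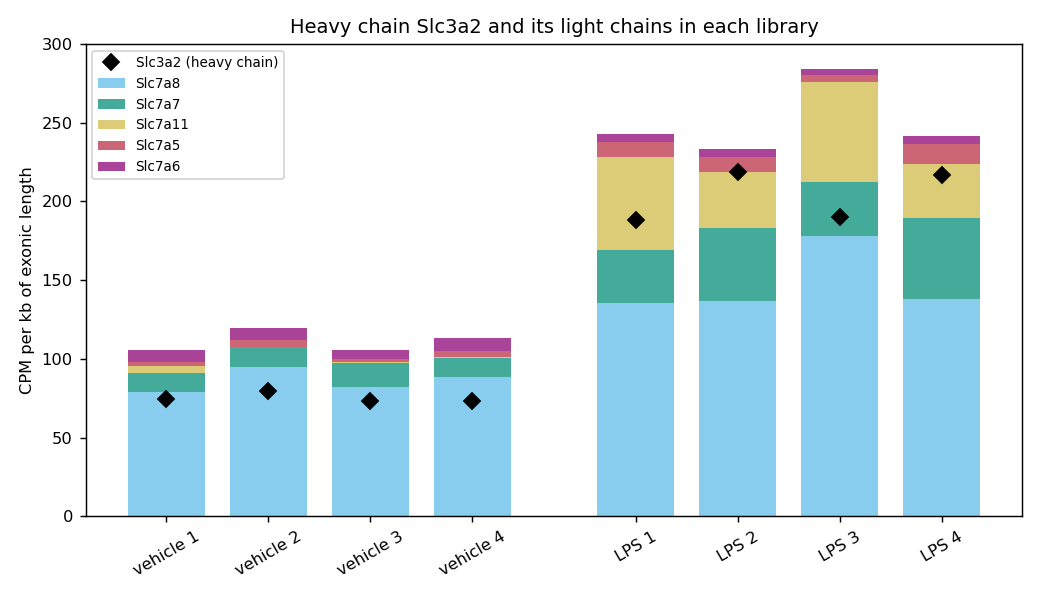
CPM per kb of exonic length of the light chains of the heteromeric transporters, stacked for each library, with the heavy chain Slc3a2 as a black diamond. Heavy and light chains are both higher in all 4 LPS libraries than in any vehicle library, Slc7a8 is the largest part throughout, and Slc7a11 appears as a broad band in the LPS libraries, 14.2% to 24.3% of the pool.

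Slc43a2, the facilitated carrier of the same neutral amino acids, fell. It (chromosome 11, 75531694 to 75577575, plus strand) had 628, 428, 498 and 454 CPM in vehicle and 81.8, 103, 108 and 91.9 CPM in LPS libraries. No LPS library came near the vehicle range, and the mean was 5.22-fold lower (log2 fold change -2.38 ± 0.16, edgeR adjusted p = 1.72e-06). Of its exonic bases 9.18% are covered by Gm45606 on the opposite strand, and 8.75% of its 50-base windows also occur in another gene, so a small part of its counts is uncertain. Slc16a10 (TAT1), a facilitated carrier of aromatic amino acids, also fell, from 244 to 281 CPM in vehicle to 85.8 to 107 CPM in LPS libraries (log2 fold change -1.39, edgeR adjusted p = 5.21e-06). It was picked after its values were seen.

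Slc1a5 (chromosome 7, 16781340 to 16798274, plus strand) showed the largest change of the 10 genes in either direction in this fit. It had 21.7, 20.8, 18.1 and 20.1 CPM in vehicle and 2.51, 1.58, 1.26 and 1.24 CPM in LPS libraries. These LPS values rest on 23 to 42 counts per library, against 567 to 619 in vehicle. The gap was many times the spread within either group, 12.3-fold lower after LPS (log2 fold change -3.62 ± 0.22, edgeR adjusted p = 1.17e-06). By size of fall it ranked 360th of the 13847 tested genes. Its paralog Slc1a4 (ASCT1), a carrier of alanine, serine and cysteine, went the other way, from 2.03 to 6.47 CPM in vehicle to 7.36 to 13.1 CPM after LPS (log2 fold change 1.18 ± 0.35, edgeR adjusted p = 0.0149), a call lost with library totals (0.50, adjusted p = 0.254).

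The sodium-coupled carriers Slc38a2 and Slc38a1 lie next to each other on chromosome 15 (96687392 to 96699730 and 96571418 to 96642913, both on the minus strand). Slc38a2 had 246, 246, 199 and 217 CPM in vehicle and 249, 292, 308 and 274 CPM in LPS libraries. The groups were separated only by the gap between 246 and 249 CPM. The rise of 1.24-fold passed the test narrowly (log2 fold change 0.31 ± 0.12, edgeR adjusted p = 0.0421). The call depended on the fit. With the replicate number as a block the adjusted p was 0.0666, with upper quartile scaling the log2 fold change was 0.15 (adjusted p = 0.240), and with library totals it turned to -0.38 (adjusted p = 0.0117).

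Slc38a1 had 113, 111, 100.4 and 116 CPM in vehicle and 82.2, 76.4, 122 and 79.2 CPM in LPS libraries. In 3 of the LPS libraries it lay below every vehicle library, while LPS replicate 3 lay above them all. The difference was not called (log2 fold change -0.29 ± 0.15, edgeR adjusted p = 0.118). Without LPS replicate 3 it was -0.47 (adjusted p = 8.79e-04).

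A ratio of both genes within a library does not depend on how libraries are scaled. Per length, Slc38a2 stood to Slc38a1 as 4.24, 4.32, 3.86 and 3.64 in vehicle and as 5.91, 7.45, 4.94 and 6.75 in LPS libraries. All LPS ratios exceeded all vehicle ratios, with LPS replicate 3 the closest to them. The log2 ratio was 0.63 higher after LPS (two-sided exact permutation p = 0.0286, the smallest that 4 against 4 libraries allow), which became 0.0857 after adjustment over 3 ratios. Within same-numbered pairs it was higher in 4 of 4, and the exact sign flip test gave p = 0.125, the smallest that 4 pairs allow.

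Slc36a1 (chromosome 11, 55204350 to 55236330, plus strand) had 79.5, 46.2, 56.7 and 49.2 CPM in vehicle and 40.6, 50.4, 58.9 and 47.3 CPM in LPS libraries. The groups overlapped throughout apart from vehicle replicate 1 at the top and LPS replicate 1 at the bottom. The test did not call a difference (log2 fold change -0.23 ± 0.18, 95% interval -0.64 to 0.18, edgeR adjusted p = 0.288). Without vehicle replicate 1 it was -0.013 (adjusted p = 0.939), and with library totals -0.92 (adjusted p = 7.00e-04).

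Slc1a3 (chromosome 15, 8634124 to 8710764, minus strand) was the scarcest of the 10 genes in vehicle, with 4.66, 11.1, 1.3 and 8.84 CPM, and had 4.25, 3.70, 1.35 and 5.52 CPM in LPS libraries. The libraries of 1 group differed more among themselves than the groups did (log2 fold change -0.81 ± 0.60, 95% interval -2.15 to 0.53, edgeR adjusted p = 0.257). Leaving out 1 library at a time gave -1.08 to -0.36, the latter without vehicle replicate 2, and library totals gave -1.48 (adjusted p = 0.0601). Pdgfra, a receptor that marks oligodendrocyte precursor cells, had 2.84, 16.7, 0.381 and 14.9 CPM in vehicle and 2.33, 2.56, 0.140 and 2.92 CPM in LPS libraries.

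In vehicle the libraries had the same order in Slc1a3, Slc7a5, Pdgfra and the summed markers of precursor cells and of astrocytes, with replicate 2 highest, then 4, 1 and 3. This order held in 5 of the 8 precursor cell markers and 1 of the 7 astrocyte markers that passed the filter, in 4 of the 20 tested genes of the ATF4 list described further on, among them Asns, Trib3 and Shmt2, and in Slc1a4. Over all tested genes it held in 6.40%. In LPS libraries the order was 4, 2, 1 and 3 in Slc7a5 and Pdgfra, 4, 1, 2 and 3 in Slc1a3, 1, 4, 2 and 3 in the precursor cell sum and 1, 4, 3 and 2 in the astrocyte sum. The 10 precursor cell markers summed to 28.9 to 150.9 CPM in vehicle and 65.2 to 145.0 CPM in LPS libraries, with 3 called lower and 1, Vcan, called higher of 8 that passed the filter. Vcan alone had 5.52 to 21.8 CPM in vehicle and 37.2 to 104 CPM in LPS libraries, most of the sum in each LPS library. The 10 astrocyte markers summed to 17.1 to 32.6 and 36.2 to 110.7 CPM, with 3 lower and 1, Gja1, higher of 7 that passed, and Gjb6 had no count in any library. Gja1 alone had 0.639 to 1.07 CPM in vehicle and 28.9 to 98.1 CPM in LPS libraries. The higher astrocyte sum after LPS is thus mostly this gene. Called shares over all tested genes were 33.8% lower and 30.3% higher. The part of these cells in the levels of Slc1a3 and Slc7a5 was not tested.

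**Figure D3:**
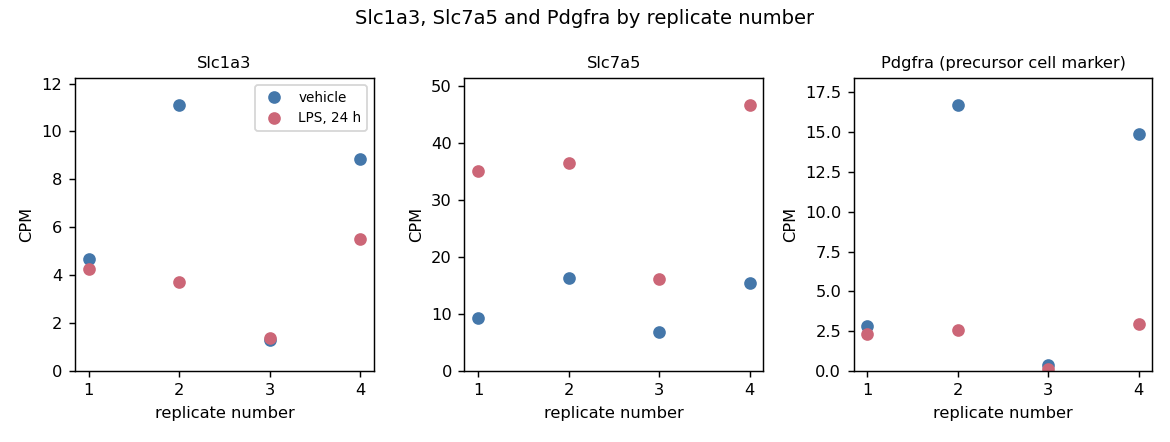
CPM of Slc1a3, Slc7a5 and the precursor cell marker Pdgfra against the replicate number, a name without order, in vehicle (blue) and LPS (red) libraries. Replicate 3 is lowest in all 3 genes and both groups, with 0.381 and 0.140 CPM of Pdgfra, and vehicle replicates 2 and 4 are the highest vehicle libraries in each.

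Markers of other cell types gave small sums, which also moved with the treatment apart from the neuronal ones, whose ranges overlapped. The 8 endothelial markers summed to 37.3 to 84.2 CPM in vehicle and 196 to 272 CPM in LPS libraries, while Cldn5 had no count in any library and Tek and Esam were at 3 counts or fewer. Flt1 alone had 25.0 to 71.8 and 86.3 to 197 CPM. The 6 oligodendrocyte markers summed to 81.3 to 115.2 and 18.4 to 23.3 CPM, the 7 neuronal markers to 3.52 to 10.9 and 2.47 to 7.66 CPM, and the 6 fibroblast and mural cell markers to 0.497 to 4.31 and 5.30 to 21.4 CPM. Their part in the transporter levels was not tested.

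Ordered by CPM per kb, the vehicle cells had most Slc7a8 (85.9 ± 7.01) and Slc3a2 (75.1 ± 2.90), whose ranges overlapped, then Slc43a2 (50.0 ± 8.85) and Slc38a2 (25.7 ± 2.62). Slc7a7 (13.1 ± 1.64) and Slc36a1 (10.3 ± 2.68) overlapped, Slc38a1 followed at 6.39 ± 0.400, Slc1a5 (4.83 ± 0.367) and Slc7a5 (3.22 ± 1.24) overlapped, and Slc1a3 was lowest at 0.759 ± 0.511. After LPS the order of CPM per kb was Slc3a2 (203.6 ± 16.5), Slc7a8 (147.1 ± 20.7), then Slc7a7 (41.5 ± 8.85) and Slc38a2 (31.8 ± 2.86), which overlapped. Slc43a2 (9.58 ± 1.17), Slc7a5 (9.07 ± 3.43) and Slc36a1 (8.77 ± 1.35) then overlapped as neighbours, Slc38a1 was at 5.21 ± 1.24, and Slc1a3 (0.434 ± 0.204) and Slc1a5 (0.395 ± 0.143) overlapped at the bottom. Slc43a2 had moved from the third to the fifth place, and Slc7a7 from the fifth to the third.

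Of 45 other amino acid transporters, 22 passed the filter on low counts, and 17 were at 3 counts or fewer in every library. After LPS 7 of the 22 were called higher and 7 lower, and their median log2 fold change was -0.05. That is 31.8% in each direction, close to the 30.3% higher and 33.8% lower of all tested genes. The largest rise was that of Slc7a2 (CAT2), the carrier of arginine, the substrate of Nos2. It went from 8.59 to 14.0 CPM in vehicle to 1562 to 3328 CPM in LPS libraries (log2 fold change 7.81 ± 0.37, edgeR adjusted p = 3.03e-07). Among the heteromeric and cationic carriers, Slc7a11 (log2 fold change 5.03 ± 0.82) and Slc7a1 (CAT1, 1.31 ± 0.21) rose as well, and Slc7a6 fell (-0.58 ± 0.16). Vehicle replicate 1 had 60.1 CPM of Slc7a11 and the other vehicle libraries 6.50 to 7.99 CPM, and without it the log2 fold change was 6.56. Slc7a4 was also called lower, with 2.13 to 4.73 CPM in vehicle and at most 3 counts in each LPS library. Slc7a11, Slc7a1 and Slc7a4 are named after their values were seen.

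Transporters of the lysosome changed in both directions. Slc15a3 (PHT2), which exports histidine and small peptides, rose from 299 to 399.8 CPM in vehicle to 2781 to 3301 CPM after LPS (log2 fold change 3.14 ± 0.15, edgeR adjusted p = 3.46e-07). Ctns, the cystine exporter cystinosin, fell (-1.40 ± 0.25, edgeR adjusted p = 7.99e-04). Among carriers outside the lysosomal list, Slc38a6 (-1.56 ± 0.16) and Slc6a6 (-0.65 ± 0.11), the taurine transporter, fell. Slc6a6 went from 1429 ± 61.3 to 911 ± 41.7 CPM. Slc38a9 (0.45, but -0.25 with library totals and an adjusted p of 0.0544 with the replicate block) and Pqlc2 (0.88) were called higher and Slc15a4 (-0.49, adjusted p = 0.0353) lower, and these 3 are named after their values were seen.

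**Figure D4:**
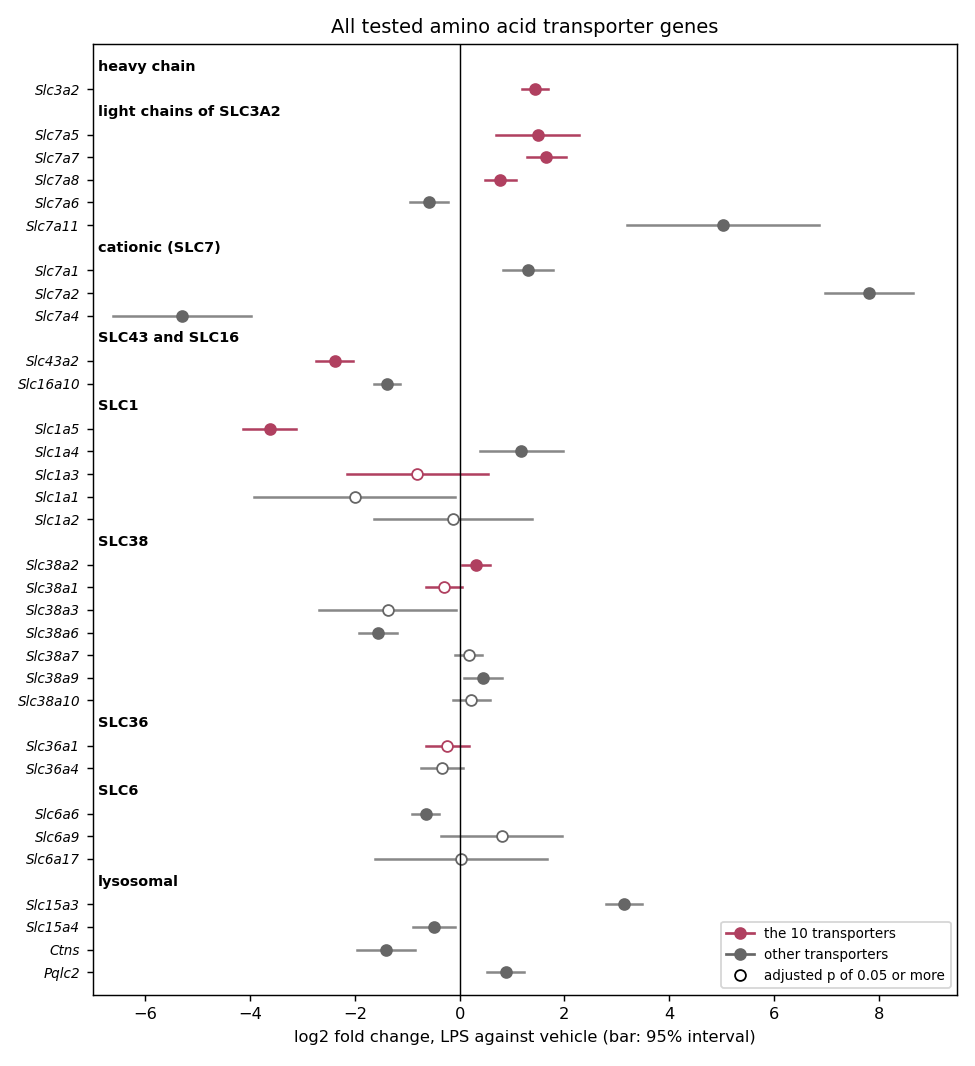
Log2 fold change of LPS against vehicle with its 95% interval for the 10 transporters (red) and the 22 other tested amino acid transporters (gray), grouped by family, with open circles where the edgeR adjusted p was 0.05 or more. The heavy chain and the light chains Slc7a5, Slc7a7, Slc7a8 and Slc7a11 lie to the right of 0, Slc43a2, Slc16a10 and Slc1a5 to the left, and the SLC38 and SLC36 genes close to 0 apart from Slc38a6 and Slc38a3.

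Amino acid shortage and other stresses act on many transporter genes through ATF4, a transcription factor that binds amino acid response elements together with C/EBP proteins. In a list of 22 genes of this response, 14 of the 20 tested were called higher and 2 lower. Of all tested genes 30.3% were called higher and 33.8% lower. The median log2 fold change of the list was 2.17, and its highest gene was Nupr1, a stress-induced nuclear protein, at 4.97 ± 0.36. Asns, the asparagine synthetase, went from 13.1 to 24.9 CPM in vehicle to 95.1 to 115 CPM after LPS. Trib3, a pseudokinase that ATF4 induces, went from 1.68 to 5.78 to 62.8 to 95.2 CPM. The largest fall was that of Shmt2, the mitochondrial serine hydroxymethyltransferase (-1.20 ± 0.28, edgeR adjusted p = 4.26e-03). The other called lower was Gpt2, an alanine transaminase, at -0.84 ± 0.15. Asns, Trib3 and Gpt2 are named after their values were seen.

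RefSeq promoter windows of GRCm38.p6, 250 bases before to 50 after each start, were searched on both strands for TGATGNAA, the core of the amino acid response element. The window was given for 7 of the 10 transporters, and only Slc7a7 held the letters, which 4.51% of the 27025 genes with a window also hold (3.97% of the 32851 windows). In the ATF4 list they occurred in 6 of 20 genes with a window. Over all lists the holders called higher were Slc7a7, Slc7a11, Slc1a4, Asns, Atf3, Chac1, Nupr1, Trib3, Aars and Gars. Iars, Lamtor4 and Got1 held them and were called lower, and Pycr1, Tars and Yars held them and were not called. These genes are named here because they hold the letters. A match is a description of the letters and not of a bound site, and no match says only that they are not in this window. The sequences below run from 250 bases before to 25 after a start, 5′ to 3′ on the strand of the gene, with each match in capitals, on either strand. Slc7a7 (chr14:54417920-54418194) is shown because it had the largest rise of the 10, Slc3a2 (chr19:8713873-8714147) because it rose and its window lacks these letters, and Slc7a11 (chr3:50443589-50443863), Asns (chr6:7693185-7693459) and Trib3 (chr2:152344036-152344310) because they rose and hold them. All 5 genes lie on the minus strand. The Slc3a2 window lies inside the annotated gene, whose 5′ end is at 8723369, so the bases around that end were not searched.
Slc7a7: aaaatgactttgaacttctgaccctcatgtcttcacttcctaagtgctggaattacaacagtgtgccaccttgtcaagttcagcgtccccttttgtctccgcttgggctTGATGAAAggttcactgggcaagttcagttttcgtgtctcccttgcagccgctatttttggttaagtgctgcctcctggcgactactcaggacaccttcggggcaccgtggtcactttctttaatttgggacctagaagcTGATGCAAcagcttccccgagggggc
Slc3a2: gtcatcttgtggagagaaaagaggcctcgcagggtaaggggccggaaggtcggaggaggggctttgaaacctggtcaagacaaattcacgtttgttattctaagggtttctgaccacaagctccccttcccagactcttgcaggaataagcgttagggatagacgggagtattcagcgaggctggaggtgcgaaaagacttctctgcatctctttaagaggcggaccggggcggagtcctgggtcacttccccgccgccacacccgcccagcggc
Slc7a11: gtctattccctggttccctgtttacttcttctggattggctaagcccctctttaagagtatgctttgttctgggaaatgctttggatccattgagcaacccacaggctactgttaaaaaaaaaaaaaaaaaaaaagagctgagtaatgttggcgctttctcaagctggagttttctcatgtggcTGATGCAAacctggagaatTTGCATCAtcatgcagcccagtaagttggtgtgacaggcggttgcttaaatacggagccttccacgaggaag
Asns: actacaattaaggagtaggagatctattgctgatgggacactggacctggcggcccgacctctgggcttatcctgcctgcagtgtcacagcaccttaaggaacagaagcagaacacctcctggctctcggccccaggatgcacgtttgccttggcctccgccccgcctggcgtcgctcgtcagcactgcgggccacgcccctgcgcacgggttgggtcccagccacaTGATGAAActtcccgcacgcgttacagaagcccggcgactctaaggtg
Trib3: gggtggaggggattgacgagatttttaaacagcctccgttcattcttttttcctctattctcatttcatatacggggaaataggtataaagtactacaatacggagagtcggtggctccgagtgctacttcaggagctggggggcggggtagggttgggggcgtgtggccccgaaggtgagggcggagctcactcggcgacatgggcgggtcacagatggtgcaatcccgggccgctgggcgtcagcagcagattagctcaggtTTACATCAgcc
In Slc7a7 the matches begin 141 bases and 1 base before the start, and in Slc7a11 66 and 47 bases before it, the second on the opposite strand. The Slc7a7 start used is its most upstream one and lies before the 5′ end of the annotated gene, 54417780. In the window of a second Slc7a7 start only TGATGCAA is found, 243 bases before that start. In Asns the match begins 23 bases before the start, and in Trib3 15 bases after it, on the opposite strand.

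Amino acids are charged onto tRNA by aminoacyl-tRNA synthetases, many of which ATF4 also induces. Of the 20 cytosolic ones, 10 were called higher and 3 lower, with a median log2 fold change of 0.31. The called shares were 50.0% and 15.0%, beside 30.3% and 33.8% of all tested genes. The alanyl enzyme Aars rose most, from 112 to 139 CPM in vehicle to 372 to 572 CPM after LPS (2.06 ± 0.16, edgeR adjusted p = 4.51e-06), and the valyl enzyme Vars fell most, from 48.9 to 65.1 to 4.85 to 16.9 CPM (-2.16 ± 0.33, edgeR adjusted p = 2.84e-04). The other 2 called lower, Farsb and Iars, were at -0.58 and -0.53 and are named after their values were seen. With upper quartile scaling 6 were called lower, and with library totals 4 higher and 10 lower.

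The kinase complex mTORC1 reads amino acid supply at the lysosome through Rag GTPases and their sensors. Of 25 tested genes of this pathway, 9 were called lower and 2 higher (4 to 5 with DESeq2 or RLE scaling, none with library totals), with a median log2 fold change of -0.10. The 36.0% called lower is near the 33.8% of all tested genes, and the 8.0% called higher is below their 30.3%. Sesn1, of the family of the leucine sensor Sesn2, fell from 168 to 231 CPM in vehicle to 4.31 to 7.62 CPM after LPS (-5.04 ± 0.22, edgeR adjusted p = 1.78e-07). Fnip2, a partner of folliculin, rose (0.83 ± 0.20, edgeR adjusted p = 5.16e-03). Wdr59, the other gene called higher and named after its values were seen, was at 0.78. With library totals 23 were called lower, and Fnip2 and Wdr59 were at 0.14 and 0.10 and no longer called.

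Genes that use glutamine and glutamate fell together with Slc1a5. Of 11 tested, 10 were called lower (90.9%, beside 33.8% of all tested genes), with a median log2 fold change of -1.19. The other one, Gfpt1, named after its values were seen, was not called (0.20, edgeR adjusted p = 0.325, and -0.50 with library totals). Glul, the glutamine synthetase, went from 324 to 436 CPM in vehicle to 43.0 to 59.0 CPM after LPS (-2.84 ± 0.15, edgeR adjusted p = 4.52e-07). The mRNA of Slc1a5, 1 of the carriers that import glutamine, and that of the enzyme that makes it were thus both lower. Of the glutamine carriers, Slc38a2 was called higher narrowly and not in every fit, and lower with library totals (-0.38). Slc38a1 was not called (-0.29), but all LPS libraries except replicate 3 lay below every vehicle library. It was called lower with upper quartile scaling (-0.46), with library totals (-0.99) and without LPS replicate 3 (-0.47). Of 15 tested genes of branched-chain amino acid breakdown, 9 were called lower and 3 higher, with a median of -0.53. The called shares of all tested genes were 33.8% lower and 30.3% higher. Mccc2, a subunit of the carboxylase of leucine breakdown, fell from 8.13 to 9.06 to 1.12 to 1.41 CPM (-2.78 ± 0.16, edgeR adjusted p = 8.44e-07), and Ppm1k, the phosphatase that activates the first irreversible step, rose (1.33 ± 0.17, edgeR adjusted p = 1.02e-04). Acadsb (0.43) and Dld (0.30) were the others called higher, both turned lower with library totals, and they are named after their values were seen.

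Cystine taken up by Slc7a11 feeds glutathione synthesis. Of 7 tested genes of this list 2 were called higher, Gsr and Ggct, and 1 lower, Ggt5 (2 lower with the replicate block), with a median log2 fold change of 0.19. The called shares were 28.6% and 14.3%, beside 30.3% and 33.8% of all tested genes. Gsr, the glutathione reductase, rose from 35.1 to 74.2 CPM in vehicle to 327 to 462 CPM after LPS (3.02 ± 0.25, edgeR adjusted p = 6.67e-06). Ggct and Ggt5 are named after their values were seen.

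**Figure D5:**
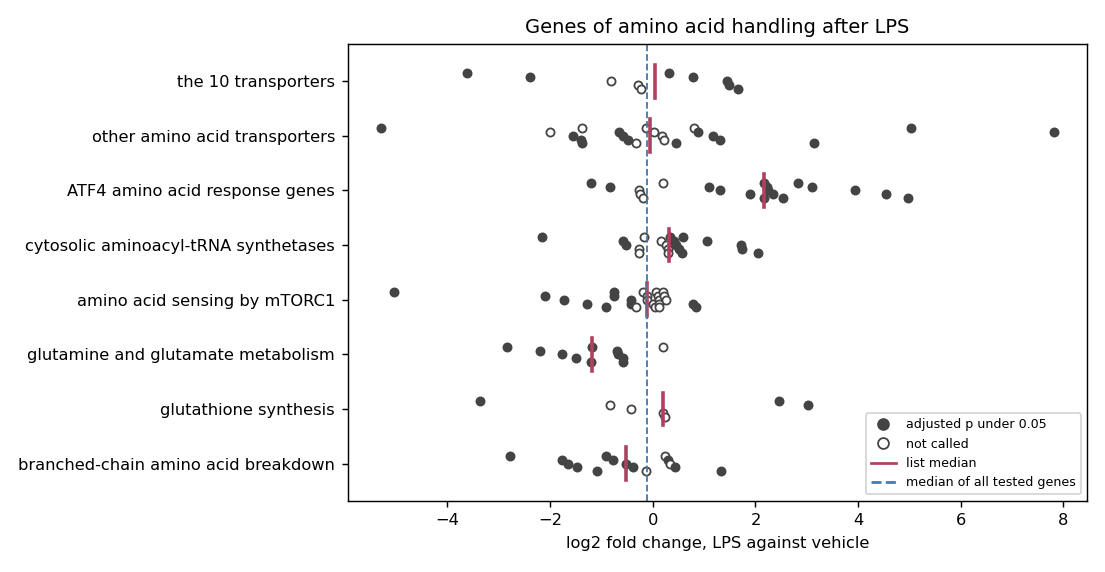
Log2 fold changes of LPS against vehicle for the tested genes of 8 lists, 1 point per gene, filled where the edgeR adjusted p was under 0.05, with the list median in red and the median of all tested genes, -0.11, as a dashed line. The 10 transporters spread from -3.62 to 1.66 around a median of 0.04, the ATF4 genes lie mostly to the right (median 2.17) and the glutamine and glutamate genes to the left (median -1.19).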

How the data were processed

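RNA of 8 samples was sequenced in single-end reads. Per the labels and the study's methods, the authors aligned reads to GRCm38 with GSNAP in HTSeqGenie, kept unique alignments, and deposited raw counts per Ensembl gene, without normalization. The labels and methods name different kits and sequencers. The annotation release and the use of strand are not given in the sources used here. Symbols, positions and exonic lengths came from GENCODE vM21 (52489 of 52636 identifiers matched), promoters from RefSeq (GRCm38.p6).

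Counts were tested with edgeR 4.0.16 in R 4.3.3 (filterByExpr keeping genes at 10 counts or more and 15 in total, TMM scaling, two-sided quasi-likelihood test), with Benjamini-Hochberg adjustment across the genes kept and a threshold of 0.05. The fit was tested on simulated data. Ratios of 2 genes were compared by exact permutation. Levels and tables were computed in Python 3.11.15. CPM use the counts of tested genes times the TMM factor, which was 1.21 to 1.32 in vehicle and 0.701 to 0.833 in LPS libraries. A count of up to 3 is the floor, and such limits cover counting error only. Deviations of same-numbered vehicle and LPS libraries from their group means correlated with r of 0.373, 0.196, 0.171 and 0.108 over 8010 genes. All exceed 0.1, so the numbers were treated as pairs and the block is given where it changes a call. Differently numbered libraries exceeded 0.1 too, vehicle 2 with LPS 4 (r of 0.146) and vehicle 4 with LPS 2 (0.137). Both lie above the lowest same-numbered value, 0.108. The remaining differently numbered combinations had r of -0.210 to 0.001. This rule alone therefore does not single out same-numbered libraries. The labels do not state the pairing.

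The members and lists were chosen with earlier results of these data known. Named genes are the 10 members, Nos2, Il1b, markers that move with a member, and in each other list the called gene with the largest rise and fall, given a mean log2 CPM of at least 1 and groups that do not overlap. Exceptions are marked. Alternatives were DESeq2 1.42.0, RLE, upper quartile and library total scaling, no filter, the replicate block, counts without length, each library left out and, added after the data were seen, both replicate 3 libraries left out.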

Additional observations from a re-analysis of the deposited data

Results flagged for a closer look

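Single libraries stood apart from the other 3 of their group in 12 of 98 groups tested with Dixon's criterion, which flags about 1 group in 20 by chance. LPS replicate 3 accounted for 7 of the 12. It had 892 CPM of Slc7a8, where the others had 679 to 690.0, 122 CPM of Slc38a1, where the others had 76.4 to 82.2, and 136 CPM of Dld, where the others had 101 to 104. It was low in Slc7a6 (16.7 CPM, others 23.4 to 24.0), in Shmt2 (5.78 CPM, others 14.1 to 15.9), in Vars (4.85 CPM, others 13.9 to 16.9) and in Iars (41.4 CPM, others 56.0 to 57.9). LPS replicate 1 was low in Slc15a4 (33.6 CPM, others 55.3 to 55.5) and in Slc16a10 (85.8 CPM, others 106 to 107). Vehicle replicate 1 was high in Slc7a11 (60.1 CPM, others 6.50 to 7.99), vehicle replicate 2 in Aars (139 CPM, others 112 to 115), and vehicle replicate 3 was low in Slc7a6 (25.1 CPM, others 35.0 to 35.9). LPS replicate 3 was the deepest library, with 30604447 counts, and had the lowest TMM factor, 0.701. The part of these in its values was not tested.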

How the results depend on the processing

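The directions of Slc3a2, Slc7a7, Slc1a5 and Slc43a2 and their calls held under every alternative run. Scaling moved the rest. Against TMM, library totals shifted the median of all genes by -0.68 on the log2 scale, upper quartile scaling by -0.16 and RLE by 0.06, and the share of higher calls among all calls was 47.2% with TMM, 19.0%, 39.6% and 50.1% with these, and 49.8% with DESeq2. With library totals 2 transporters were called higher and 5 lower, 4 of the other transporters higher and 11 lower, and 64 of the pathway genes lower. The log2 fold changes were then 0.83 for Slc7a5, 0.086 for Slc7a8, -0.99 for Slc38a1, -0.92 for Slc36a1 and, turned in direction, -0.38 for Slc38a2, -0.25 for Slc38a9, -0.26 for Acadsb, -0.39 for Dld and -0.50 for Gfpt1. The calls of Fnip2, Wdr59, Slc1a4 and Pqlc2 were lost there. With upper quartile scaling they were -0.46 for Slc38a1 (adjusted p = 0.0138) and 0.15 for Slc38a2, and without the filter 0.28 for Slc38a2 (adjusted p = 0.137). Among the lists, genes called lower were 4 in the ATF4 list with library totals and 2 to 4 in the glutathione list over the alternatives that moved it, and 1 gene of branched-chain breakdown was called higher with upper quartile scaling or library totals. The call of Slc15a4 was lost with DESeq2, RLE and 4 of the 8 libraries left out in turn. The cause of these shifts was not tested.

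With the replicate block, Slc38a2 kept 0.31 with an adjusted p of 0.0666, and the log2 ratio of Slc38a2 to Slc38a1 stayed 0.63 with an exact sign flip p of 0.125, the smallest that 4 pairs allow. No other call of the 10 transporters or of the genes named beside them changed with the block except that of Slc38a9, and 9044 genes were called in place of 8877. This leaves out Sesn2, Sesn3, the cell type markers and the genes named only for their promoter letters, whose calls were not followed over the alternatives. The log2 ratio of Slc3a2 to its light chains was -0.12 on counts without length. Leaving out 1 library at a time gave 0.49 to 1.12 for the log2 ratio of Slc7a5 to Slc7a8, 0.54 to 0.74 for that of Slc38a2 to Slc38a1, 0.20 to 0.36 for that of Slc3a2 to its light chains, -0.47 to -0.21 for Slc38a1, -0.32 to -0.013 for Slc36a1, -1.08 to -0.36 for Slc1a3 and 0.27 to 0.38 for Slc38a2, whose call was lost without vehicle replicate 4 or LPS replicates 2, 3 or 4. Without both replicate 3 libraries, Slc38a1 was -0.44 (adjusted p = 0.00151) and the log2 ratio of Slc38a2 to Slc38a1 was 0.72 (exact permutation p = 0.1, the smallest for 3 against 3). Depth limits Slc1a5 after LPS and Slc1a3, which rest on 23 to 42 and 29 to 321 counts per library.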
